A study of Mus musculus with 2 samples.

Results

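Definitive red blood cells are the circulating red cells that carry adult hemoglobin, and in the eyecups they were told apart by their globin transcripts alone. A cell was counted when 7 globin genes (*Hbb-y*, *Hbb-bh1*, *Hbb-bs*, *Hbb-bt*, *Hba-x*, *Hba-a1* and *Hba-a2*) held at least 60% of its UMIs (unique molecular identifiers, each a counted transcript molecule) and when the adult beta-globin genes *Hbb-bs* and *Hbb-bt* together held at least as many UMIs as the embryonic *Hbb-y* and *Hbb-bh1*. This gave 522 cells of 21968, with 257 of 9822 cells in the control library and 265 of 12146 cells in the DKO library. The other cells with at least 60% globin, 809 in the control and 284 in the DKO library, carried mainly embryonic beta-globin and are called primitive red blood cells.

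Eyecups with retina, lens and blood were dissected from E13.5 mouse embryos, and single cells were profiled with the 10x Genomics 3′ kit. The control was Six3+/-;Six6+/- and the double knockout (DKO) was Six3F/F;Six6-/-;a-Cre, in which *Six6* is lost in the germline and a-Cre, which acts in the peripheral retina, removes *Six3* there. Blood cells are not described as a target of the Cre. Each genotype was 1 library made from the eyecups of an embryo, so a difference between the libraries cannot be told apart from a difference between embryos, dissections or captures. No test between the genotypes was made, and every interval in parentheses is a 95% interval for counting error only.

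The libraries held 10315 and 12672 cells with 85589515 and 85173276 UMIs, and a cell was kept when it had over 200 but fewer than 6000 genes and its mitochondrial share was below 20%, which gave medians of 7620 (control) and 5879 (DKO) UMIs. They shared 22 barcodes, and 0 barcodes were definitive red blood cells in both. The targeted gene *Six6* was at 2.25 UMIs per control and 0.291 per DKO cell among cells with under 5% globin, and the definitive red blood cells held 5 and 4 *Six6* UMIs in all. The control library also held 29 definitive cells that nearly lacked *Hba-a2*, as the DKO cells did. Without them and the primitive cells like them, definitive cells were 2.32% of the kept control cells and 23.1% of the control red cells.

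Red blood cells of the mouse embryo come in waves. Primitive red cells arise in the yolk sac, enter the blood while still nucleated and make embryonic globins, whereas definitive red cells mature mainly in the fetal liver, expel the nucleus and make adult globins. Hemoglobin needs alpha-type and beta-type chains in balance and a heme in each chain, and a maturing cell discards most other RNA, the nucleus and the mitochondria as globin fills it.

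The 5 sequences here are the 150 bases upstream of the RefSeq start of the globin genes that carried most of the UMIs, shown because they are the promoters of the adult genes that define these cells and of *Hbb-y*, the embryonic gene they nearly lack. All are GRCm38.p6 and written 5′ to 3′ on the strand of the gene, and capitals mark the CACCC and CCAAT boxes in either orientation, 2 elements known from globin promoters. The regions are chr7:103827929-103828078 for *Hbb-bs*, chr7:103813924-103814073 for *Hbb-bt* and chr7:103853208-103853357 for *Hbb-y* (all minus strand), and chr11:32283522-32283671 for *Hba-a1* and chr11:32296342-32296491 for *Hba-a2* (plus strand).
Hbb-bs: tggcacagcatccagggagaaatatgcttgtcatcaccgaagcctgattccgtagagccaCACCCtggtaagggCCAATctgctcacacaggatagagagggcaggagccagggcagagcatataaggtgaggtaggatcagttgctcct
Hbb-bt: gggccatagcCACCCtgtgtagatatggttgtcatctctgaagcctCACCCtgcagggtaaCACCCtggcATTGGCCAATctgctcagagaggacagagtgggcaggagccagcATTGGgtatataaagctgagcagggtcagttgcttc
Hbb-y: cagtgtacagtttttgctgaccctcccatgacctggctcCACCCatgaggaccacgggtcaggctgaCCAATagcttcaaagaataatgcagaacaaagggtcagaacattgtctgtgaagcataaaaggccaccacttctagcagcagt
Hba-a1: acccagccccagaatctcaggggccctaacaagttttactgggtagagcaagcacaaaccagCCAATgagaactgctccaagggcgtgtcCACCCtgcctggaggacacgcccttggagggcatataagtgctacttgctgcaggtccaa
Hba-a2: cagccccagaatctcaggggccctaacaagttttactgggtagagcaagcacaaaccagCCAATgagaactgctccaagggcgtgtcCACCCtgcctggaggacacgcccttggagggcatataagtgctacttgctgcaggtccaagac

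*Hbb-bt* carried 3 CACCC and 3 CCAAT boxes in this stretch, and the other 4 genes carried 1 of each. Of 32851 RefSeq promoter windows, 37.4% held CACCC and 24.5% held CCAAT in the same 150 bases, so either box alone is common. The longer CCACACCC, which contains CACCC, was found only in *Hbb-bs* among the 9 globin windows and in 2.18% of all windows. The GATA words AGATAA and TGATAA were sought in the full 300-base windows on both strands, where 11.2% and 9.05% of all promoters held them, *Hbb-bs* and *Hbb-bh2* the first and *Hbb-y*, *Hba-x*, *Hba-a1* and *Hba-a2* the second. Of the 59 red cell genes with a window, 20.3% held AGATAA and 13.6% TGATAA. A match is a string of letters, and binding was not measured.

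*Hba-a1* and *Hba-a2* are near-copies on chromosome 11 (32283511 to 32284465 and 32296489 to 32297298, GRCm38, plus strand). Their promoter windows were identical over 297 bases once shifted by 3, their coding sequences matched at 425 of 426 bases, and their 3′ UTRs of 77 and 93 bases matched over 77 bases. *Hbb-bs* and *Hbb-bt* on chromosome 7 (103826534 to 103828096 and 103812524 to 103813996, minus strand) matched at 440 of 441 coding bases but at only 95 of 132 aligned bases of the 3′ UTR, the part that a 3′ kit reads. The split of reads between *Hba-a1* and *Hba-a2* is therefore uncertain wherever it is given, and their sum is given for the definitive cells. The gene coordinates are those of GENCODE, whose starts differ from the RefSeq starts used for the printed stretches. By GENCODE the stretches of *Hba-a1* and *Hbb-bs* lie inside the genes, and those of *Hba-a2*, *Hbb-bt* and *Hbb-y* reach into them.

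The 2 red cell types separated clearly by the genes of the rule, which is a description and no test. Of the definitive cells, 256 of 257 in the control and 263 of 265 in the DKO library had at least 95% adult genes among their beta-type UMIs. The cells nearest to the border had 55.9% and 55.5% just inside it, and 46.9% and 44.9% just outside it. Those inside held 4035 of the 4641 *Hbb-y* UMIs of all control and 2292 of the 2468 of all DKO definitive cells, and without these 2 cells *Hbb-y* was 0.0564% and 0.0191% of beta-type UMIs. The globin threshold cut a thinner tail, with 3 control and 4 DKO cells of adult type at 55 to 60% globin and 0 and 1 at 60 to 65%.

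**Figure D1:**
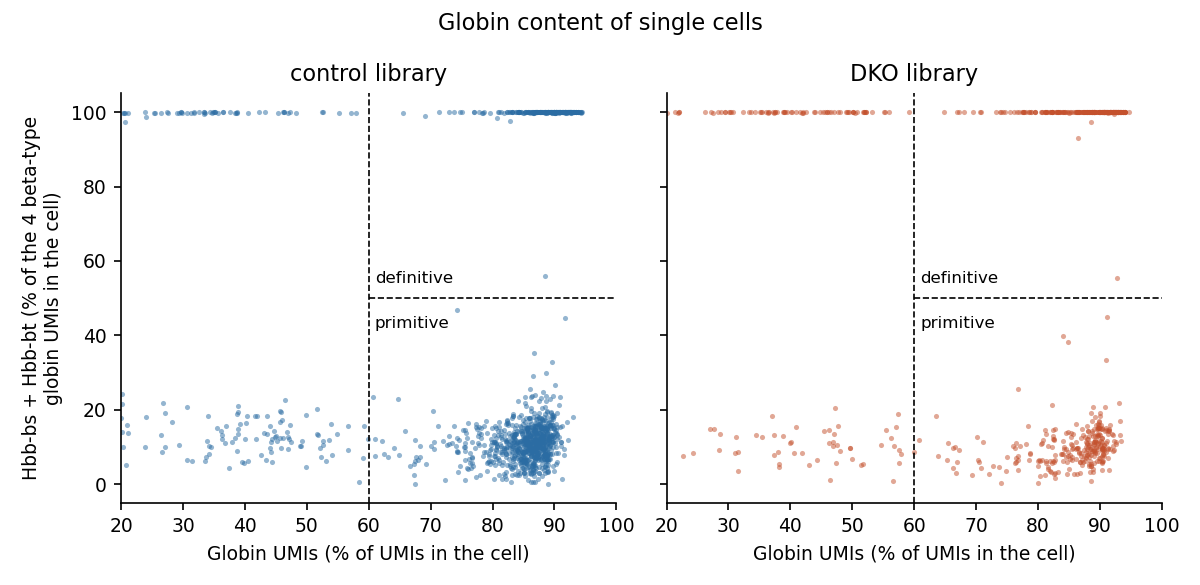
Each point is a cell, with its globin share of UMIs (percent, from 20) against the adult share of its beta-type UMIs (percent), and dashed lines mark the thresholds of 60% globin and 50% adult beta-type UMIs. Definitive cells lie near 100% adult in both libraries, apart from the 2 cells at 55.9% and 55.5%.

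Definitive cells made up 2.62% (2.31 to 2.95) of the kept control and 2.18% (1.93 to 2.46) of the kept DKO cells. The primitive share was 8.24% (7.70 to 8.80) in the control and 2.34% (2.08 to 2.62) in the DKO library. Definitive cells were thus 24.1% (21.6 to 26.8) of the control and 48.3% (44.0 to 52.5) of the DKO red cells, and it was the primitive cells whose share of the library differed more. Blood in an eyecup depends on the dissection, and its part in these shares was not tested. The limit on genes acted on these cells above others, since a cell full of globin shows few other genes. It removed 162 of 419 otherwise eligible control (38.7%) and 269 of 534 DKO cells (50.4%), none of them for high mitochondrial content. Without the limits the shares of all cells were 4.06% and 4.21%, and the shares of red cells 32.6% and 61.4%.

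The adult genes filled the definitive cells. In the control library the adult beta-globin genes *Hbb-bs* and *Hbb-bt* held 46.3% and 23.5% of the globin UMIs, *Hba-a1* 24.0% and *Hba-a2* 5.93%. In the DKO library the shares were 46.9%, 20.1%, 32.8% and 0.0956%. A median control cell held 2739 *Hbb-bs*, 1409 *Hbb-bt*, 1365 *Hba-a1* and 357 *Hba-a2* UMIs, and a median DKO cell 2460, 1035, 1706 and 5.

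Embryonic globins were close to absent from most definitive cells. The median cell held 2 *Hbb-y* UMIs in the control and 0 in the DKO library, against 4766 and 3770.5 in primitive cells, and 2 and 1 in cells with under 5% globin. *Hba-x*, the embryonic alpha-type chain, had a UMI in 14.4% of control and 8.30% of DKO definitive cells, and in 15.9% and 5.78% of low-globin cells (medians of 6627 and 5921 UMIs per definitive cell and of 7402 and 5789.5 per low-globin cell). *Hbb-bh1*, an embryonic beta-type chain, held 156 control and 358 DKO UMIs, but 89 and 252 of these lay in 1 cell each, with 3 and 1 *Hbb-y* UMIs. *Hbb-bh2* was at 0 in all definitive cells, which allows up to 3 UMIs in each library.

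The balance of alpha-type to beta-type UMIs was close in both red cell types of a library. Alpha-type genes held 29.95% of the globin UMIs of control and 32.9% of DKO definitive cells, and 30.7% and 32.6% in primitive cells. *Hbb-bt* per 100 *Hbb-bs* UMIs was 50.7 (50.5 to 50.9) in control and 42.8 (42.6 to 43.02) in DKO definitive cells. In primitive cells, which hold both genes at low level, it was 88.4 (87.9 to 88.9) and 51.3 (50.7 to 51.9). *Hbb-bt* transcripts thus stood lower against those of *Hbb-bs* in the DKO library in each cell type, and in control primitive cells they stood higher than in any definitive group.

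*Hba-a2* differed between the libraries more than any other globin of the rule. Per 100 *Hba-a1* UMIs it stood at 24.7 (24.5 to 24.9) in control and 0.292 (0.276 to 0.308) in DKO definitive cells, and at 21.7 and 0.473 in primitive cells. Without the 29 cells low in *Hba-a2* the log2 ratio of its share of globin UMIs, DKO over control, was -6.14 in place of -5.95, and that of *Hba-a1* 0.50 in place of 0.45. The sum of both genes differed far less, at 29.9% of globin UMIs in the control and 32.8% in the DKO cells. *Hbq1a*, a theta-globin gene that lies just beyond *Hba-a2* (chromosome 11, 32300069 to 32300873), had 25 UMIs in control and 0 in DKO definitive cells, whereas its near-copy *Hbq1b* had 49 and 35.

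Within the control library *Hba-a2* was all or nothing. In 29 of the 257 definitive cells it was at most 0.750% of *Hba-a1* plus *Hba-a2* UMIs, and in the other 228 it ran from 6.52 to 27.7% with a median of 22.7%. All 265 DKO cells were low, with a highest value of 0.813%. The same split ran through the control primitive cells, of which 50 of 809 were low, and through the control cells that the limit on genes removed, of which 27 of 162 were low. In the DKO library 2 of 284 primitive cells were high, at 12.6% and 20.6%. Both kinds of control cell gave nearly the same total, since *Hba-a1* and *Hba-a2* together held 30.1% of globin UMIs in low and 29.9% in high cells.

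**Figure D2:**
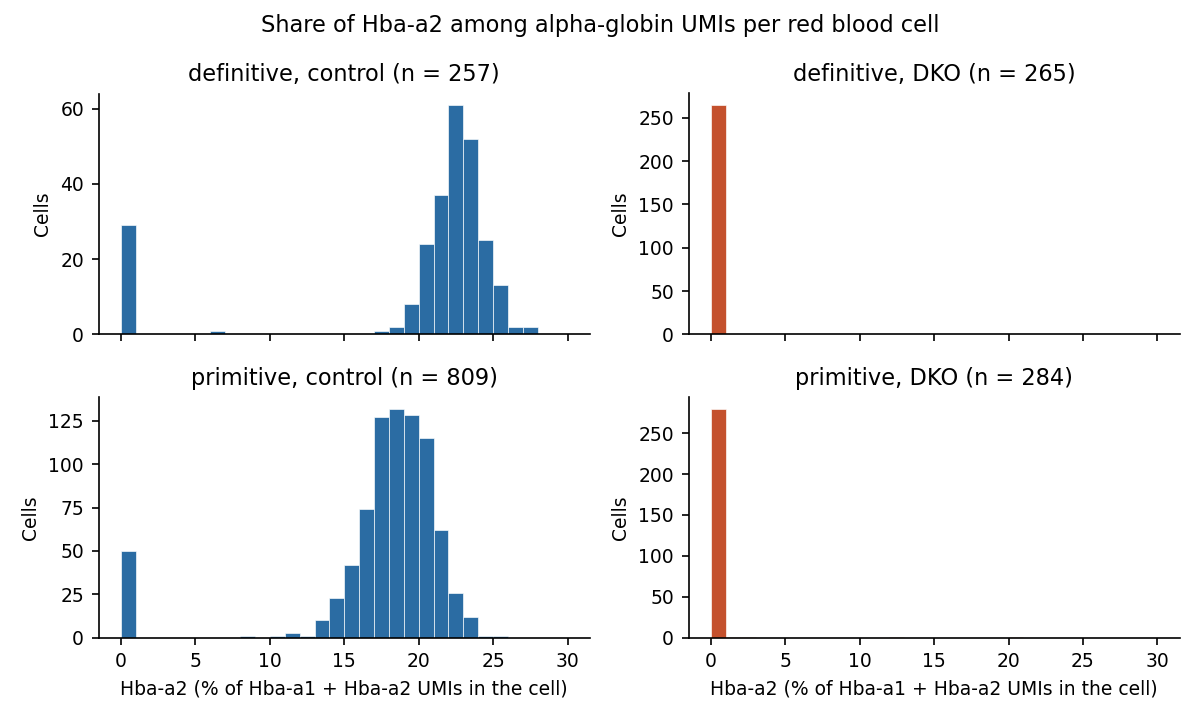
Histograms of *Hba-a2* as a percent of *Hba-a1* plus *Hba-a2* UMIs in each red cell (x axis, bins of 1 percentage point), with the number of cells (y axis) for each cell type and library. In the control library 29 definitive and 50 primitive cells lie under 1%, as do all 265 definitive DKO cells.

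The 29 low cells were compared with the other 228 control cells as a description, since they were set apart after the data had been seen. Their depth was alike (medians of 6900 and 6543.5 UMIs, 250 and 288.5 genes, 91.7% and 89.6% globin). They held 0 *Hbq1a* UMIs against 25. A count of 0 in so few cells allows up to 3 UMIs, so these cells alone cannot show whether *Hbq1a* sets them apart. Among control primitive cells, the 50 low ones held 0 *Hbq1a* UMIs and the 759 high ones 138, whereas *Hbq1b* had 13 and 245. *Gm16867*, a protein-coding gene model on chromosome 14 (69363504 to 69503362, GRCm38), had 11 of its 12 control UMIs in the 29 low cells, which put it at 575 per 1000000 non-globin UMIs there, at 5.45 in the high cells and at 963 (830 to 1111) in the DKO cells. In *Hba-a2* the 29 control cells lay near the DKO cells because that gene chose them. In *Gm16867* they also lay nearer to the DKO cells. The same held for *Ftl1* (51087 in low and 36717 in high control cells, 47042 in DKO cells), *Rhd*, of the Rh blood group complex (836, 1557 and 793), *Rpl41*, a ribosomal protein gene (10447, 7139 and 9750), and the metallothionein gene *Mt2* (104, 430 and 139, on 2 UMIs in low cells). In others it did not: *Ubb*, a ubiquitin gene, was at 9768 in low and 5570 in high control cells (log2 ratio 0.81, 0.58 to 1.04) but at 3449 in DKO cells, and *Slc4a1*, the anion exchanger band 3, was at 888 and 2946 with DKO cells between them at 2147. DKO cells also lay nearer to the high control cells in *Gpx1*, a peroxide-removing enzyme gene (16141 in low, 25064 in high and 24144 in DKO cells). The same was true of the nuclear RNA *Malat1* (4074, 11789 and 8010), the ubiquitin ligase gene *Mkrn1* (15566, 12001 and 10728) and the heme gene *Alas2* (7574, 6137 and 5817). The genes named on either side are examples, and no general likeness is read from them. The source of the 29 cells was not tested.

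Outside globin the definitive cells were shallow. Their non-globin UMIs came to 202793 in the control and 194253 in the DKO library, with a median of 637 and 581 per cell, and a median of 283 and 290 genes (126 and 135 after thinning each cell to 2000 UMIs, which left out 1 and 3 cells). All gene levels are given as CPM, that is, UMIs of the gene per 1000000 non-globin UMIs, summed over the cells of a group. They are not divided by length, because the kit counts 3′ ends, so a level compares cells rather than genes. The red cell markers that the rule did not use were found far more often than in low-globin cells. *Alas2*, the erythroid first enzyme of heme synthesis, had a UMI in 97.3% of control and 97.0% of DKO definitive cells, against 0.373% and 0.140% of low-globin cells, and *Slc4a1* in 54.1% and 49.4% against 0.513% and 0.0698%.

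RNA of other cell types was present at a low level. The 10 retinal progenitor genes held 136 control and 165 DKO UMIs, or 1.56% and 3.53% per cell of what a low-globin cell holds, and the 8 retinal neuron genes 95 and 128 UMIs, or 1.56% and 1.66%. To estimate free RNA, all UMIs of these lists were assumed to come from lysed cells. Subtracting the profile of low-globin cells at that scale took away 14.4% of the non-globin UMIs of control and 19.3% of DKO definitive cells. These are the amounts subtracted, which were less than the full profile at that scale. The 7 lens genes held 298 and 452 UMIs, or 1.93% and 11.2% per cell of what a low-globin cell holds. The estimate of free RNA rests on the retinal lists, at 1.56% and 2.36% per cell, so lens RNA of the DKO cells lay well above it. Of the *Cryaa* UMIs of the DKO cells, 50% lay in 2 cells. Markers of other blood and vessel cells were nearly absent, with 0 UMIs in both libraries for the platelet list (*Pf4*, *Ppbp*, *Itga2b*, *Gp9*, *Gp1bb*) and the list of neutrophil and mast cell genes, 1 and 6 for macrophages, 1 and 1 for endothelium, 0 and 3 for mesenchyme and 1 and 1 for pigment cells. The 6 genes of early progenitors held 5 and 2 UMIs, with 4 and 5 of the 6 genes at 0.

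Ferritin, peroxide-removing enzymes, ribosomal proteins and *Gm42418* were among the most counted non-globin transcripts. *Fth1* and *Ftl1*, the heavy and light chains of ferritin, stood at 47872 and 38073 in the control and at 36617 and 47042 in the DKO library. The peroxide-removing enzymes *Prdx2* and *Gpx1* stood at 32452 and 24222 in the control and at 29317 and 24144 in the DKO cells. Ribosomal protein genes together came to 157905 and 183173 CPM, and the 10 mitochondrial genes 46274 and 38342. *Gm42418*, a gene model that overlaps ribosomal RNA sequence, stood at 33137 and 18558.

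Members differed in whether they held nuclear RNA. *Malat1*, a long noncoding RNA kept in the nucleus, had 0 UMIs in 134, 1 to 9 in 93 and at least 10 in 30 of the control cells, and in 118, 122 and 25 of the DKO cells. The 30 and 25 cells held 93.4% and 84.8% of all *Malat1* UMIs of the definitive cells. At 8.73 and 5.87 UMIs per cell the mean was above the 1.86 and 3.12 that free RNA would give by the estimate above, but it rested on these few cells. The median cell held 0 and 1 UMIs, below those values, and the cells with 1 to 9 UMIs held 149 and 236 in all. Of primitive cells, 99.9% in the control and 99.3% in the DKO library had a *Malat1* UMI.

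The same few cells also held much of some other transcripts. In the control library the 30 cells held 43 of 43 *Neat1* UMIs (another nuclear RNA), 65 of 72 of *Tfrc*, the transferrin receptor, 104 of 117 of *Mki67*, a proliferation marker, and 18 of 30 of *Sox6*, a repressor of embryonic globin. In the DKO library the 25 cells held 10 of 10, 33 of 37, 46 of 96 and 19 of 25. For comparison, the 30 and 25 cells were 11.7% and 9.43% of the definitive cells. Of all non-globin UMIs they held 45447 of 202793 in the control and 34897 of 194253 in the DKO library. The summed cell cycle list stood at 1950, 2874 and 7085 in control cells with 0, with 1 to 9 and with at least 10 *Malat1* UMIs, but at 2688, 3985 and 4012 in the DKO library, where the latter groups were close. They had a median of 559.5 and 540 genes and 83.2% and 79.6% globin, against 278 and 279 genes and 90.02% and 90.4% globin in cells without a *Malat1* UMI.

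The globin share ordered the members in the same way. From 60 to 80% through 80 to 90% to at least 90% globin, with 14, 124 and 119 control and 29, 110 and 126 DKO cells, the median number of genes was 795.5, 349 and 243 in the control, and 649, 347.5 and 230.5 in DKO cells. *Malat1* ran from 35789 through 9939 to 1487 in the control and from 13608 through 9048 to 2150 in the DKO cells. *Tfrc* ran from 1129 through 335 to 30.7, and from 473 through 171 to 0 UMIs, which allows up to 3 UMIs. *Mki67* differed mainly between the first groups, at 2722, 214 and 184 in the control and at 881, 376 and 367 in the DKO library.

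*Alas2*, *Bpgm* and *Mkrn1* ran the opposite way per non-globin UMI. *Alas2* was at 2955, 5789 and 8602 in the control and, in the same order, 2924, 5630 and 8335 in the DKO library, so each step was outside the counting error and the libraries nearly coincided. *Bpgm*, which makes the oxygen-affinity regulator of red cells, was at 2656, 7622 and 11086 and at 3719, 6701 and 9752. *Mkrn1*, a ubiquitin ligase gene, was at 5976, 10972 and 17526 and at 5568, 10120 and 15620. Per cell they did not stand higher at each step: *Alas2* came to 6.36, 5.02 and 4.71 UMIs per control cell and 4.69, 4.49 and 3.97 per DKO cell, so its higher level is relative to a non-globin total that was smaller in cells with more globin. Other red cell genes did not all stand higher in this order even as levels. In the control library the heme list, which holds *Alas2*, stood at 13313, 13206 and 14919 (11243, 12114 and 13887 in the DKO library), the membrane list at 19820, 15002 and 15072, the transcription factor list at 2590, 1536 and 920, and *Car2*, a carbonic anhydrase, at 6640, 6663 and 6195. *Slc4a1* was lower at each step, at 4449, 2904 and 1717 in the control and, in that order, 2601, 2416 and 1400 in the DKO library. The control group of 14 cells is small, and for *Malat1*, *Tfrc*, *Alas2*, *Bpgm*, *Mkrn1* and *Slc4a1* the order of the other groups was the same without it. Because the globin share chose the cells, these orders are descriptions.

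**Figure D3:**
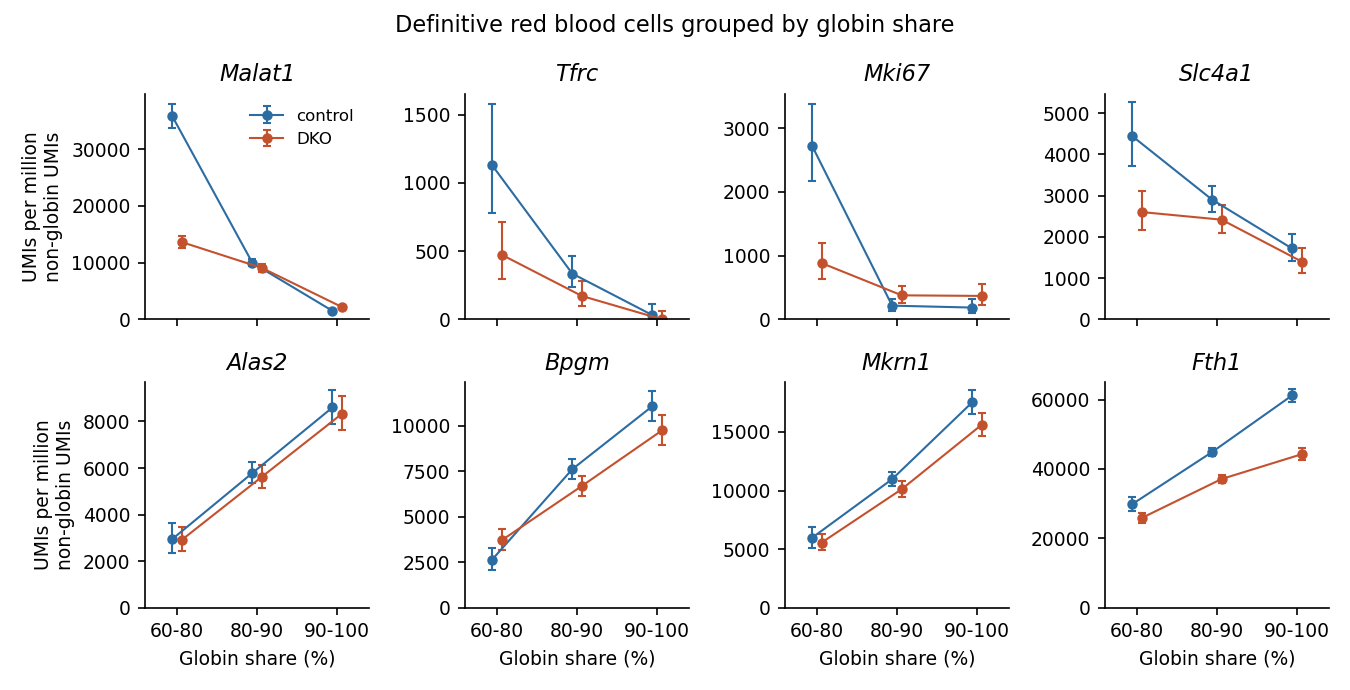
Levels (CPM of non-globin UMIs, y axis) of 8 genes in definitive cells grouped by globin share (x axis, percent), with exact Poisson 95% intervals for counting error as bars, for the control (14, 124 and 119 cells) and DKO library (29, 110 and 126 cells). *Malat1*, *Tfrc* and *Slc4a1* are lower and *Alas2*, *Bpgm*, *Mkrn1* and *Fth1* higher in the cells with more globin.

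Definitive cells were then compared with primitive cells of the same libraries over all non-globin genes, which the rule had not used. UMIs were summed per library and cell type and tested with edgeR's quasi-likelihood test with the library as a block and Benjamini-Hochberg adjustment. Of 2082 genes tested, 499 (24.0%) were higher and 490 (23.5%) lower in definitive cells (47.5% in either direction) at an adjusted p below 0.05, and the median log2 fold change was 0.05 over all genes. The 4 sums leave 1 residual degree of freedom per gene, so the spread is in effect shared over genes and rests on the 2 libraries. Each SE below was derived from the fold change and the F value of this test. It carries that shared spread and is not the spread of a single gene between libraries. DESeq2 called 223 higher and 243 lower, and without the control cells low in *Hba-a2* edgeR called 448 and 444. On CPM levels without TMM scaling the median of all genes was 0.30 in the control and 0.20 in the DKO library, so a log2 fold change near these values depends on the scaling. Levels are also relative to the non-globin total. Its median per cell was 637 (control) and 581 (DKO) UMIs in definitive cells, and 1235 and 868 in primitive cells. A higher level thus need not mean more UMIs of the gene per cell.

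The heme pathway was higher as a group. Of its 8 genes 7 were called higher and 0 lower, with a median log2 fold change of 2.002, and *Uros* was not called (-0.13). *Alas2* was at 6272 in control and 5817 in DKO definitive cells, and at 2205 and 2009 in primitive cells, which is a log2 fold change of 1.33 ± 0.15 (SE). *Alad*, the second enzyme, was at 1667 and 1354 against 240 and 102 (2.97 ± 0.24). *Fech*, the enzyme that inserts the iron, was at 2254 and 2692 against 1044 and 759 (1.26 ± 0.19). In each of these genes both definitive levels lay above both primitive levels.

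Iron genes were higher and lower in equal number. Those higher were *Slc25a37*, the mitochondrial iron importer mitoferrin, at 3807 and 4211 against 386 and 235 (log2 fold change 3.49 ± 0.19), *Tfrc* (1.71 ± 0.32), of whose definitive UMIs 65 of 72 control and 33 of 37 DKO lay in the few cells with at least 10 *Malat1* UMIs, and *Glrx5* (1.104 ± 0.17), a factor for iron-sulfur clusters. The ferritin chains were lower, *Fth1* at 47872 and 36617 against 91780 and 72684 (-1.16 ± 0.07) and *Ftl1* (-0.86 ± 0.07), as was *Abcb10* (-1.52 ± 0.35), a transporter of the mitochondrial inner membrane. With 3 higher and 3 lower of 7 tested the median was -0.39.

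Membrane and surface genes were mostly higher, with 10 called higher and 1 lower of 15 tested and a median of 1.12. *Rhd*, of the Rh blood group complex, stood at 1489 and 793 against 196 and 70.3 (log2 fold change 2.94 ± 0.26), and *Rhag*, its partner in that complex, at 192 and 165 against 44.0 and 14.1 (2.28 ± 0.34). *Slc4a1* at 2752 and 2147 against 1509 and 604 (1.12 ± 0.18) was called here but not in the fit without the block, at edgeR adjusted p = 0.0686. Per cell it came to 2.17 UMIs in definitive and 1.99 in primitive control cells, and to 1.57 and 0.606 in the DKO library. It had a UMI in 54.1% of definitive and 70.8% of primitive control cells, and in 49.4% and 33.1% of the DKO cells. *Add2*, which caps actin in the membrane skeleton, was lower (-1.05 ± 0.34). With DESeq2 the calls of *Add2*, *Dmtn* and *Tmod1*, all of the membrane skeleton, were lost at adjusted p = 0.201, 0.109 and 0.168.

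Of 7 tested transcription factors, 4 were higher and 1 lower, with a median of 1.56. *Sox6* had 30 and 25 UMIs in definitive cells and 0 in the primitive cells of both libraries, which makes it at least 62.5-fold higher when 3 UMIs are allowed over all primitive cells. *Lmo2*, a bridging subunit of erythroid factor complexes, had 78 and 55 UMIs against 3 and 3 (log2 fold change 5.99 ± 0.45). *Klf1*, an activator of adult beta-globin (2.04 ± 0.32), and *Zfpm1*, a partner of the factor encoded by *Gata1* (1.56 ± 0.33), were also higher. *Tal1*, an early erythroid factor, was lower at 178 and 66.9 against 753 and 453 (-2.53 ± 0.30). *Gata1* itself had 9 and 6 UMIs and was too low to test, and *Bcl11a* had 0 and 3. The calls of *Sox6* and *Zfpm1* were lost with DESeq2, at adjusted p = 0.146 and 0.0726.

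Genes for redox defence and red cell metabolism were higher in 5 and lower in 1 of 8 tested, with a median of 0.94. *Gpx1* led them at 24222 and 24144 against 3438 and 2599 (log2 fold change 2.82 ± 0.12), while *Prdx2* (0.99 ± 0.095), *Car2*, a carbonic anhydrase (1.15 ± 0.14), and *Bpgm* (0.88 ± 0.14) differed less. Among 11 maturation and ubiquitin genes 8 were higher and 1 lower, with a median of 1.01. *Mkrn1* was at 12338 and 10728 against 3136 and 1532 (2.19 ± 0.13), and *Xpo7*, an exportin of maturing red cells, at 680 and 561 against 106 and 28.1 (2.98 ± 0.30). *Bnip3l*, which drives the removal of mitochondria (0.40 ± 0.14), *Ubb* (0.39 ± 0.15) and *Blvrb*, a biliverdin reductase (-0.29 ± 0.13), lost their calls under DESeq2 and without the block.

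Among other red cell genes 5 of 8 tested were higher and 0 lower, with a median of 2.33. *Hemgn*, a nuclear protein gene of erythroid cells, was at 251 and 165 against 14.98 and 28.1 (log2 fold change 3.35 ± 0.37), and *Fam210b*, a mitochondrial protein gene, at 2411 and 2069 against 998 and 615 (1.30 ± 0.19). *Tspo2*, a membrane protein gene of red cells, had 32 and 15 UMIs against 1 and 0 (6.94 ± 0.72). *Fam46c*, a poly(A) polymerase gene, was not called (0.11).

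**Figure D4:**
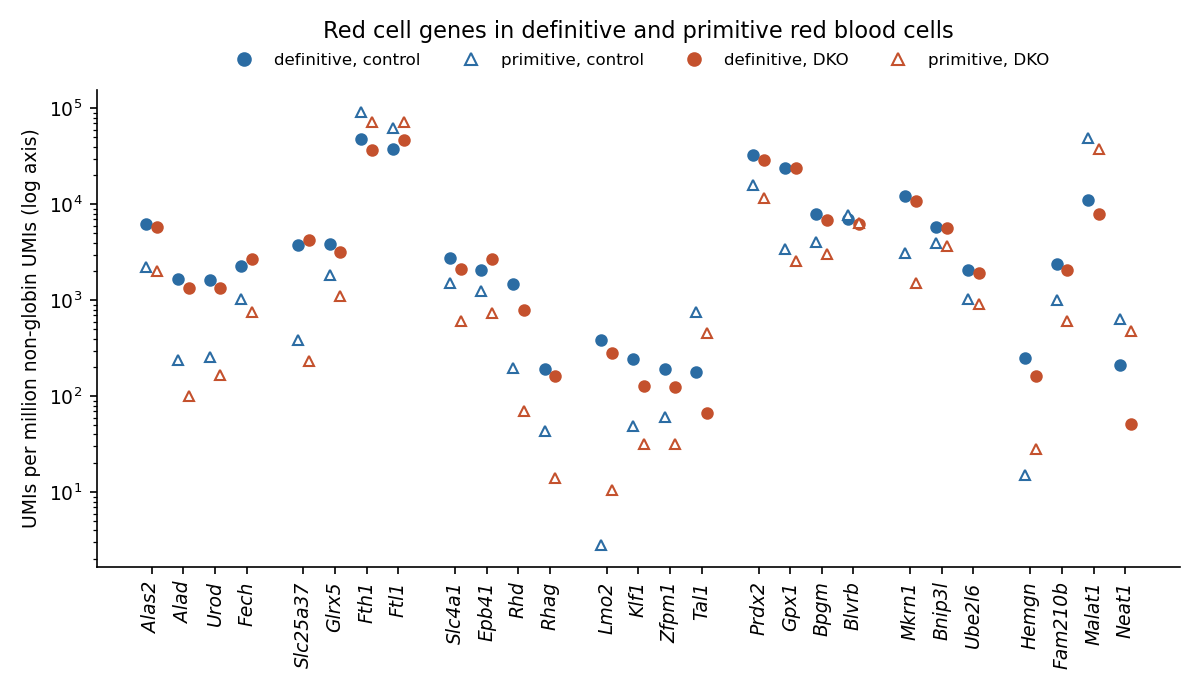
Levels (CPM of non-globin UMIs, log axis) of 27 genes in definitive (filled circles) and primitive (open triangles) red blood cells of the control and DKO libraries, 1 sum per point, ordered from heme genes to nuclear RNA. *Slc25a37*, *Rhd*, *Hemgn* and *Lmo2* are far higher in definitive cells of both libraries, and *Fth1*, *Ftl1*, *Tal1*, *Malat1* and *Neat1* lower.

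Nuclear RNA and ribosomal protein transcripts stood the other way. *Malat1* was at 11060 and 8010 in definitive against 48880 and 37675 in primitive cells (log2 fold change -2.38 ± 0.09), and *Neat1* at 212 and 51.5 against 640 and 481 (-2.36 ± 0.30). Of 79 ribosomal protein genes 58 were lower, 1 (*Rpl10*) was higher and the median was -0.84. Of 10 mitochondrial genes 7 were higher and 0 lower, with a median of 0.82 (*mt-Co1* 1.94 ± 0.14). Cell cycle genes were higher in 5 of 10 tested and lower in 0, with a median of 0.78 (*Mki67* 3.25 ± 0.32), and 104 of 117 control but 46 of 96 DKO *Mki67* UMIs lay in the few cells with at least 10 *Malat1* UMIs. With DESeq2 *Mki67* alone of the 5 was called, and *Birc5*, *Ccnb1*, *Cdk1* and *Hmgb2* were at adjusted p = 0.105, 0.132, 0.440 and 0.077, and *Cdk1* was not called by edgeR without the block either (adjusted p = 0.0668).

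Among all genes called in the same direction in both libraries with at least 100 UMIs, 7 of the 8 that stood highest are given. *Ctsf*, a lysosomal protease gene, had 71 and 83 UMIs in definitive and 3 and 0 in primitive cells, with a log2 fold change of 7.05 ± 0.50. *E2f2*, a cell cycle regulator of the last erythroid divisions, followed with 141 and 119 against 10 and 2 UMIs (6.04 ± 0.40). The others were *Lmo2* (5.99), *Mpp1*, a membrane skeleton adaptor (5.49), *Pla2g16* (5.21), *Ube2c*, a ubiquitin-conjugating enzyme (4.97), and *Cd47*, the surface signal that prevents uptake by macrophages (4.90).

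The lowest 8 were genes that definitive cells hardly held. *Fam174b* had 0 UMIs in the definitive cells of both libraries and 640 and 111 in primitive cells, at least 73.5-fold lower when 3 UMIs are allowed over all definitive cells. *Pls3*, an actin-bundling protein (188 and 47 UMIs in primitive cells), *Trib3*, a stress-response pseudokinase (177 and 34), *Cd9*, a tetraspanin (100 and 41), *Gm16062* (88 and 35) and *Hexim2* (95 and 30) were also at 0 in definitive cells, at least 12.0-fold to 23.0-fold lower. *Arid3a* (-5.63) and *Tsc1* (-4.998) had 1 or 0 UMIs per library. With DESeq2 the calls of *Fam174b*, *Pls3*, *Trib3*, *Cd9* and *Gm16062* were lost, at adjusted p from 0.0805 to 0.228.

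A few genes of other tissues were called too. Of the lens list 3 of 6 tested were higher (*Cryba1*, *Cryga* and *Crybb3*, log2 fold changes from 0.69 to 0.85), but in all 3 the call was lost without cells that held at least 1% of UMIs of other cell types, which were 2 definitive DKO cells and 1 primitive cell in each library (0.069, 0.74 and 0.66 without them). The calls were also lost without the block (edgeR adjusted p = 0.102, 0.0798 and 0.131) and with DESeq2 (adjusted p = 0.336, 0.335 and 0.304). Of the retinal progenitor list 1 of 6 was higher (*Sfrp2*, 0.80 ± 0.32, edgeR adjusted p = 0.0522 without those cells), and of 4 retinal neuron genes 0 were called. The median log2 fold change was 0.61 for lens, 0.73 for retinal progenitor and 0.08 for retinal neuron genes.

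Outside globin most genes of the definitive cells lay within 2-fold between the DKO and the control library. Of 818 genes with at least 50 UMIs over both libraries, 22 (2.69%) were past 2-fold higher and 21 (2.57%) past 2-fold lower in the DKO library (5.26% in either direction), with a median log2 ratio of 0.06 (24 and 22 genes without the control cells low in *Hba-a2*). These counts moved with the limits: 78 and 36 of 1059 genes were past 2-fold with cells of at least 50% globin taken in. With at least 80% globin 7 of 645 were higher, and among genes with at least 20 UMIs 113 and 77 of 1634 were past it. Past 2-fold is a rule of size, and 1 library per genotype allows no test. Of 288 genes at least 3 times above their level in low-globin cells in either library, called red cell genes here although they hold the lens gene *Cryga*, 4 (1.39%) were higher and 14 (4.86%) lower (6.25% in either direction) with a median of -0.17. Of the other 530 genes, 18 (3.4%) were higher and 7 (1.32%) lower (4.72% in either direction) with a median of 0.18. The free RNA that could be subtracted was 14.4% of non-globin UMIs in the control and 19.3% in the DKO library. A gene could enter the first set through the library in which it is high, as *Cryga* did through the DKO and *Becn1*, an autophagy gene, through the control library, so that the choice of genes bears on these counts and medians and nothing is read from them.

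The heme, iron, membrane, transcription factor, redox and maturation lists had medians below 0, from -0.11 to -0.54, against 0.06 over all tested genes. Of the tested genes of the lists, 0 of 7 heme genes were past 2-fold higher and 2 lower (median log2 ratio -0.30), 0 and 0 of 5 iron genes (-0.29), 0 and 1 of 12 membrane genes (-0.39), 0 and 0 of 4 transcription factors (-0.54), 0 and 0 of 8 redox genes (-0.17) and 0 and 1 of 9 maturation genes (-0.11). Above 0 were 1 of the heme, 2 of the iron, 2 of the membrane, 0 of the transcription factor, 0 of the redox and 2 of the maturation genes. The list of other red cell genes differed, with 3 of 6 tested above 0, 1 past 2-fold higher and 0 lower. Its median was -0.08, but its summed log2 ratio was 0.18 (0.10 to 0.25). The 79 ribosomal protein genes had a median of 0.25, with 75 above 0. *Alas2* with 1272 and 1130 UMIs differed by a log2 ratio of -0.11 (-0.23 to 0.01) and *Gpx1* with 4912 and 4690 by -0.0047 (-0.06 to 0.05). In both genes the interval of the log2 ratio included 0.

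The 2 ferritin chains lay on opposite sides. *Fth1* had 9708 control and 7113 DKO UMIs (log2 ratio -0.39, -0.43 to -0.34) and *Ftl1* 7721 and 9138 (0.31, 0.26 to 0.35), and primitive cells had the same signs, at -0.34 and 0.22. *Slc4a1* had 558 and 417 UMIs (-0.36, -0.55 to -0.17).

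The genes past 2-fold lower included *Ppox*, a late heme enzyme, with 38 and 12 UMIs (log2 ratio -1.60, -2.67 to -0.63), *Cpox*, the enzyme before it, with 99 and 44 (-1.11) and *Ermap*, an erythroid membrane protein, with 78 and 28 (-1.42). The metallothioneins *Mt1* and *Mt2*, which bind metals, had 200 and 77 (-1.31) and 81 and 27 UMIs (-1.52), *Tuba4a*, an alpha-tubulin, 61 and 21 (-1.48) and *Neat1* 43 and 10 (-2.04). All *Neat1* UMIs of both libraries lay in the few cells with at least 10 *Malat1* UMIs. Further genes past 2-fold lower were *Smdt1* (-1.34), *Tubb4b* (-1.19), *Becn1* (-1.19) and *Lgmn* (-1.17). *Ubb* with 1210 and 670 (-0.79, -0.93 to -0.65) and *Rhd* with 302 and 154 (-0.91, -1.20 to -0.63) were lower with more UMIs but did not pass 2-fold.

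*Gm16867* stood highest in the DKO library by far. It had 12 control and 187 DKO UMIs (log2 ratio 4.02, 3.19 to 5.002), and in primitive cells 3 and 24 (4.91), but only 0.014 and 1.72 CPM in low-globin cells. As described, 11 of its control UMIs were in the 29 cells low in *Hba-a2*, and without them its log2 ratio was 7.47. *Chac2*, a glutathione-degrading enzyme, had 51 and 100 UMIs (1.03, 0.53 to 1.55) and *Cryga*, a lens crystallin, 29 and 56 (1.01). *Cryga* turned to -0.96 when the 2 DKO cells with at least 1% of UMIs of other cell types were left out.

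The genes past 2-fold that are not red cell genes were led in the DKO library by *Sox4* (11 and 41 UMIs, log2 ratio 1.96), *Ttc3* (1.40), *Nnat* (1.37), *Fam32a* (1.31) and *Cryab* (1.19). In low-globin cells *Sox4* was at 685 and 1090 CPM, and *Nnat* turned to -1.97 once free RNA was subtracted.

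**Figure D5:**
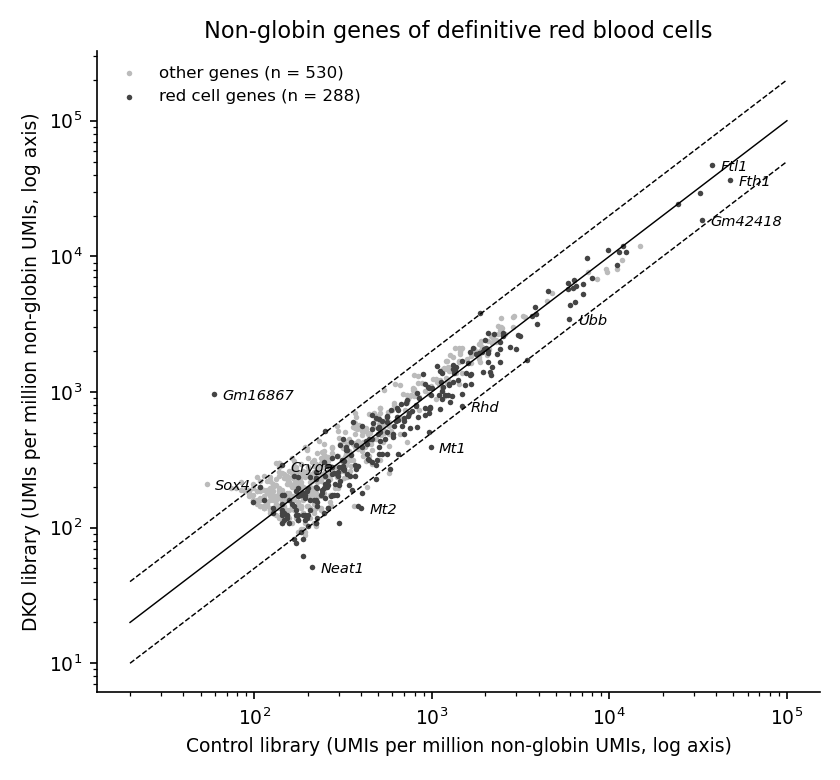
Levels of 818 genes (CPM of non-globin UMIs, log axes) in definitive cells of the control (x axis) and DKO library (y axis), with dark points for 288 red cell genes, a solid line for equal levels and dashed lines for 2-fold. *Gm16867* lies far above and *Neat1*, *Mt1* and *Mt2* below the lines, while *Fth1* and *Ftl1* lie within them.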

How the data were processed

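The authors deposited a matrix of UMI counts per gene and cell for each library, not normalised, made with Cell Ranger 3.1.0 on mm10 according to the submitters' processing notes. Barcodes were the cells called upstream, and no normalised file was used.

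A cell was kept when it had over 200 but fewer than 6000 genes and its mitochondrial share was below 20%, and definitive red blood cells were taken by their globin UMIs. The members and the gene lists were chosen with earlier results of these data known. Definitive cells had a median of 6627 (control) and 5921 (DKO) UMIs, and their non-globin UMIs, 202793 and 194253 per library, set the precision. Levels are UMIs per 1000000 non-globin UMIs (CPM) with exact Poisson 95% intervals, ratios of 2 libraries have exact binomial intervals and shares have Clopper-Pearson intervals, all for counting error only. With 1 library per genotype, DKO and control were compared by size alone, over genes with at least 50 UMIs. Definitive and primitive cells were compared on summed counts with the quasi-likelihood test of edgeR 4.0.16 in R 4.3.3 (TMM, filterByExpr, library as block), and with DESeq2 1.42.0 as an alternative. The procedure was first tested on simulated data. Other steps used Python 3.11.15, numpy 2.4.6, scipy 1.17.1, pandas 2.3.3, matplotlib 3.10.9 and Biopython 1.88. No doublet caller was run, but cells with at least 1% of UMIs from markers of other cell types were left out as an alternative. Further alternatives changed the globin and adult-share thresholds, the limits on cells, the UMI minimum, the scaling, the filter, the block and the thinning, and subtracted free RNA, that is, RNA from lysed cells. Low-globin cells are those with under 5% globin UMIs.

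Named genes were the globins, up to 4 highest members of each list and any member past 2-fold, the 8 highest and 8 lowest genes of each comparison, and the 15 highest non-globin genes. A few others, such as *Gata1*, *Bcl11a*, *Uros*, *Ppox*, *Sox6* and *Rhd*, are further members of the lists and were picked after their values were seen, as was *Chac2*. A few genes that this rule names are not reported here. *Ahsp* was not analysed here, and *Tent5c* is *Fam46c* in the files. Promoter windows came from RefSeq (GRCm38.p6), with 9 of 10 globin genes and 59 of 81 red cell genes matched, and transcripts from GENCODE (GRCm38). The CACCC and CCAAT boxes were added to the motifs after the sequences were seen.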

Additional observations from a re-analysis of the deposited data

Results flagged for a closer look

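Definitive red blood cells that the limit on genes removed were not part of the comparisons, although they made up 1.57% (162 cells) of the control and 2.12% (269 cells) of the DKO barcodes, and they carried a globin signal as strong as that of the kept cells, with medians of 93.9% and 94.6% of UMIs.

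In some genes the log2 ratio of the DKO over the control library had opposite signs in definitive and primitive red blood cells. None of these differences was tested, because each genotype had 1 library. *Ubb* was at -0.79 in definitive and 0.18 in primitive cells, a difference of -0.97, and *Mt2* at -1.52 and 0.67 (-2.19). *Fech*, a heme enzyme, ran the other way at 0.26 and -0.46 (0.72), as did *Slc25a37*, the mitochondrial iron importer, at 0.15 and -0.71 (0.86), and *Epb41*, a protein of the membrane skeleton, at 0.38 and -0.76 (1.14).

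Mitochondrial genes were lower in definitive and higher in primitive DKO cells, with *mt-Atp6* at -0.25 and 0.34 (-0.59), *mt-Co2* at -0.31 and 0.23 (-0.55), *mt-Co3* at -0.34 and 0.13 (-0.47) and the sum of the list at -0.27 and 0.22 (-0.49). The sum of other red cell genes was at 0.18 and -0.47 (0.65). Of the lens genes, *Cryab* was at 1.19 and -2.38 (3.58), *Crybb3* at 0.92 and -0.44 (1.36) and the summed list at 0.66 and -0.67 (1.33), and 2 definitive DKO cells held at least 1% of UMIs of other cell types.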

How the results depend on the processing

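Of the log2 ratios of named genes between the libraries, 740 values under the alternatives moved by less than counting error, 127 moved by more and 9 reversed. *Cryba1* (-1.87) and *Cryga* (-0.96) reversed without the mixed cells and *Nnat* (-1.97) with free RNA subtracted. Among the removed cells alone, an alternative chosen after seeing the data, *Becn1* (0.34), *Cryba1* (-0.88), *Cryga* (-3.09), *Fam32a* (-0.18), *Lgmn* (1.08) and *Tuba4a* (0.081) reversed. The counts of genes past 2-fold moved from 22 higher and 21 lower of 818 tested. They were 78 and 36 of 1059 (globin at least 50%), 7 higher of 645 (globin at least 80%) and 34 higher of 818 (levels scaled to all UMIs). Further counts were 113 and 77 of 1634 (at least 20 UMIs), 1 and 1 of 280 (at least 200 UMIs), 5 and 3 of 324 (thinned) and 5 and 2 of 263 (removed cells alone). The causes were not tested.

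Without limits on cells, definitive cells were 4.06% of the control and 4.21% of the DKO library and 32.6% and 61.4% of the red cells. The log2 ratio of the *Hba-a1* share was 0.44 with globin at least 50%, that of *Hbb-bt* -0.24 with at least 80% and -0.30 without limits, and that of *Hbb-bs* 0.045 without limits. Leaving out control cells low in *Hba-a2*, also chosen after seeing the data, gave -6.14 for *Hba-a2* and 0.50 for *Hba-a1*. Genes per cell were 283 and 290 without thinning and 76 and 81 at 1000 UMIs.

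For definitive against primitive cells, the count of genes higher was 317 without the filter and 330 without the replicate block, and DESeq2 gave 223 higher and 243 lower. Of 95 named genes called, 75 kept the call without the block, 68 without the filter, 64 with DESeq2 and 84 to 92 of 92 or 95 under the other alternatives with a test. Within the control library alone *Mt1* reversed to 0.27. No paired analysis of DKO against control was possible because they were 1 library each. The shallow non-globin counts limit what can be seen: genes with few UMIs were not tested.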
